A study of Mus musculus with 12 samples.

Results

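The tumor effect common to 2 stromal cell types of mouse bone was described by comparing all 6 arrays from tumor-bearing mice with all 6 from tumor-free mice, with cell type as an additive term. All 12 arrays of the series therefore entered the comparison, 3 in each of 4 groups, and arrays were assigned by their titles. The mice were female NOD SCID animals, an immunodeficient strain without functional B and T lymphocytes, and all cells came from long bones. Tumor-bearing mice had received 200000 MDA-MB231 scp1833 cells, a human breast cancer subline that grows in bone, by the intracardiac route about 2 weeks before. Tumor-free mice were the controls, and no other treatment or allele is given for either group. Osteoblasts were sorted as CD51+ cells without GFP, TR119, CD45, SCA1 or CD31, and endothelial cells as SCA1+ CD31+ cells without GFP, TR119 or CD45. The bones were ground and digested with enzymes for 1 hour before the sort. Each array is labelled as a biological replicate. The sources used here do not say how many mice stand behind an array, nor if osteoblasts and endothelial cells were taken from the same mice, and p-values measure the spread between the arrays only.

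Osteoblasts build bone matrix and endothelial cells line the marrow vessels, and both are counted among the niche cells that tumor cells meet on entering bone. Breast cancer cells in bone are known to drive the stroma to release cytokines and osteoclast-activating factors, which in turn favour bone resorption and tumor growth. The question of the pooled comparison was which genes differ with tumor in the same direction in both.

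The table gave log2 expression, one value per gene and array, from the gene's brightest probe set. Of 19937 genes with a single symbol, 12430 were tested, those above the array's own median on at least 3 of 12 arrays. Array medians lay between 5.21 and 5.41. Correlations between arrays within a group were lowest in tumor-free osteoblasts (0.867 to 0.908) and ran from 0.946 to 0.969 elsewhere. Each sort was higher than the other in the markers of its label. The mean of the 16 endothelial markers was 9.63 to 9.87 on endothelial arrays and 5.17 to 6.11 on osteoblast arrays. The mean of the 10 osteoblast markers on the array was 7.91 to 9.16 in osteoblasts and 5.30 to 5.63 in endothelial cells. The mean of 14 chondrocyte markers was 6.59 to 9.72 in tumor-free and 9.54 to 10.39 in tumor-bearing osteoblasts. On endothelial arrays 10 reticular stroma markers had means of 7.03 to 8.35, and 10 smooth muscle and pericyte markers 6.44 to 7.49. The part of such cells in the differences was not tested. The osteoblast arrays also carried markers of blood cells. The mean of 12 monocyte and macrophage markers was 5.03, 8.07 and 7.82 in tumor-free osteoblasts and 6.86, 6.48 and 4.94 in tumor-bearing ones, against at most 5.68 on the endothelial arrays. In such sorted populations a smaller share of cells of a type and less RNA per cell cannot be told apart.

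Of the 3 tumor-free endothelial arrays, replicate 1 lay nearest to the tumor-bearing mean for 31 of 39 gene lists. In osteoblasts that held for replicate 1 in 18 lists, for replicate 2 in 13 and for replicate 3 in 8. The immediate early and heat shock lists were among the 18 with replicate 1 nearest. The mean of 20 immediate early genes, which cells switch on within minutes of a stimulus, was 8.89, 8.20 and 7.63 in tumor-free osteoblasts 1 to 3, and 9.27 to 9.41 in tumor-bearing osteoblasts. In endothelial cells the same mean was 9.27, 8.41 and 8.24 without tumor and 9.29 to 9.35 with it. The mean of 10 heat shock genes was 10.45 and 10.66 on the tumor-free replicate 1 arrays of osteoblasts and endothelial cells, 9.38 to 9.80 on the other 4 tumor-free arrays, and 10.32 to 10.52 on all 6 tumor-bearing arrays. For the genes and lists described most fully, values are therefore also given without both replicate 1 arrays of tumor-free mice and against those arrays alone, and the part of these arrays in a result was not tested otherwise.

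Few genes passed the test over both cell types. Of 12430 genes, 11 did (0.0885%), 10 of them higher (0.0805%) and 1 lower (0.00805%) with tumor, by limma with Benjamini-Hochberg adjustment at 0.05. At an unadjusted p under 0.05 there were 1590. For osteoblasts, in the fit of all 12 arrays with 1 mean per group, 570 genes passed (4.59%), 499 higher (4.01%) and 71 lower (0.571%). Quantile normalization changed that osteoblast split to 368 higher and 184 lower, and a fit of the 6 osteoblast arrays by themselves called 0, with 1820 at an unadjusted p under 0.05. For endothelial cells, in the fit of all 12 arrays, 3 genes passed (0.0241%), Abcb1b and Stxbp6 upward and Lpar6 downward, with 861 at an unadjusted p under 0.05. No gene passed in both cell types separately. A difference of the tumor effect between the cell types was called for 26 genes (0.209%).

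Over all genes the measured tumor differences of the cell types were nearly unrelated, and these comparisons share no array. Across the 12430 genes, which are not independent replicates, Pearson's r between the osteoblast and the endothelial difference was 0.126 and Spearman's rank correlation 0.0105. The sign was the same for 5885 genes (47.3%). The median SE of such a difference was 0.23 in each cell type, and error in the differences weakens these correlations. They therefore do not show that the responses themselves are unrelated. The 499 genes called higher in osteoblasts had a median log2 difference of 1.27 there and of 0.05 in endothelial cells, where 56.1% were higher, against 46.1% of all genes. For the 71 called lower the medians were -0.71 and 0.01, and 47.9% were lower in endothelial cells, against 53.9% of all genes.

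Genes were also counted by separated arrays, whatever the size of the difference, and by a 2-fold difference in each cell type. For 172 genes (1.38%) all 3 tumor-bearing arrays lay above all 3 tumor-free arrays in each cell type, and for 89 genes (0.716%) all lay below, while 277 genes (2.23%) were separated in opposite directions. Genes that differed by at least 2-fold in each cell type were mostly higher in both: 66 genes (0.531%) were higher in both, 3 (0.0241%) were lower in both and 4 (0.0322%) went in opposite directions. Without the replicate 1 arrays of tumor-free mice these 3 counts were 127, 10 and 24. With those arrays as the only tumor-free ones they were 19, 7 and 11.

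**Figure D1:**
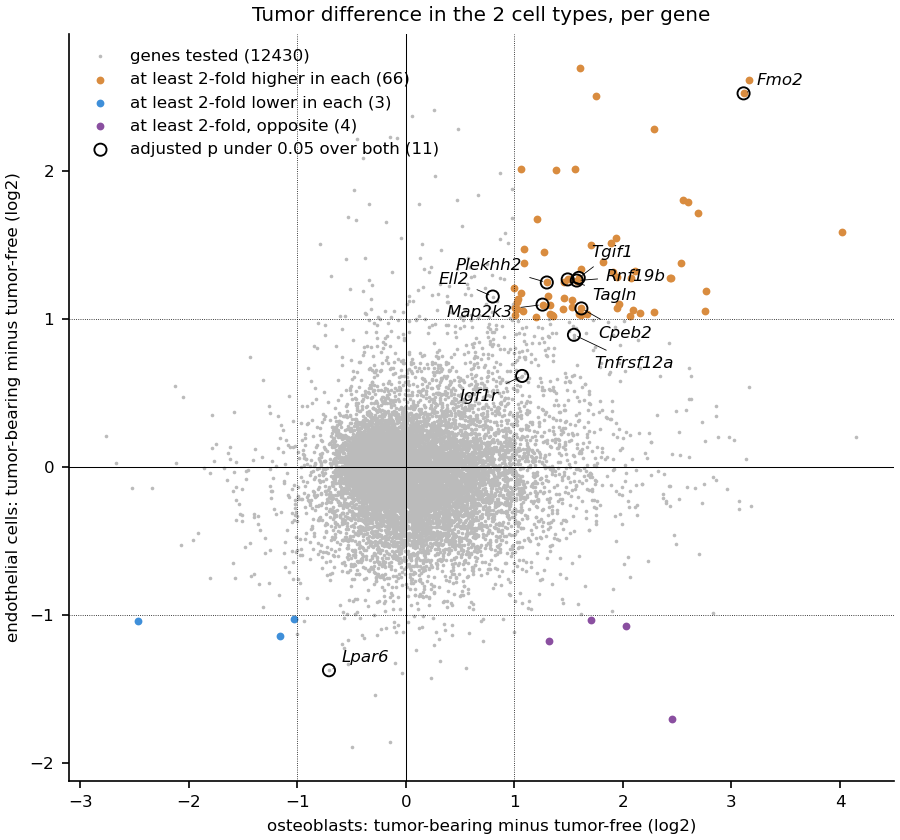
Each point is 1 of the 12430 genes tested; the horizontal axis is the log2 difference, tumor-bearing minus tumor-free, in osteoblasts and the vertical axis the same in endothelial cells, with dotted lines at a 2-fold difference. Orange, blue and purple points differ at least 2-fold in each cell type (66 higher in both, 3 lower in both, 4 opposite), and black circles mark the 11 genes with an adjusted p under 0.05 over both; most genes form a round cloud, and the upper right corner holds far more points than the other 3 corners.

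Map2k3 showed the most regular rise. It encodes the kinase that activates p38 MAP kinases in response to cytokines and stress (probe set 10376733). In osteoblasts its log2 level was 6.16, 6.47 and 6.54 on tumor-free arrays 1 to 3 and 7.65, 7.87 and 7.43 on tumor-bearing arrays 1 to 3. In endothelial cells it was 7.37, 7.05 and 6.99 without tumor and 8.22, 8.19 and 8.30 with it. The groups did not overlap in either cell type, and the rise was 2.39-fold in osteoblasts and 2.14-fold in endothelial cells. Over both it was 1.18 on the log2 scale (SE 0.12, 2.26-fold, adjusted p = 0.0053 by limma). Its difference between the cell types was 0.16 (SE 0.24). It passed with each of the 12 arrays left out in turn, and it was 2.27-fold without both tumor-free replicate 1 arrays and 2.26-fold against them alone, where the adjusted p was 0.44.

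The other 10 genes had adjusted p between 0.040 and 0.047 and were close to the threshold. Each was past it in 1 or 2 of the 12 fits that left out a single array. Leaving out tumor-free endothelial replicate 1 gave 144 calls that held all 11 genes, and leaving out both tumor-free replicate 1 arrays gave 324 that held them too, with adjusted p between 0.00056 and 0.0081 for these 11. Against tumor-free replicate 1 alone all 11 kept their direction. That could not come out otherwise, because their arrays were separated in both cell types. The folds of the 11 ran from 1.81 (Igf1r) to 8.45 (Fmo2) without both arrays, and from 1.72 (Ell2) to 4.93 (Fmo2) against them alone. On tumor-free endothelial arrays, replicate 1 was the one nearest to the tumor-bearing level for 11 of the 11 genes. In osteoblasts that held for replicate 1 in 4 of them, for replicate 2 in 5 and for replicate 3 in 2.

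Fmo2 rose most. It encodes a flavin-containing monooxygenase, an enzyme that oxidises nitrogen and sulfur compounds. The osteoblast levels were 5.08, 6.06 and 5.61 without tumor and 9.53, 8.37 and 8.18 with it. In endothelial cells the tumor-free arrays gave 9.30, 7.32 and 6.65 and the tumor-bearing arrays 10.38, 10.21 and 10.25. The lowest tumor-bearing array lay above the highest tumor-free array in each cell type, at 10.21 against 9.30 in endothelial cells. The rise was 7.06-fold over both (log2 2.82, SE 0.40, adjusted p = 0.040 by limma), 8.65-fold in osteoblasts and 5.76-fold in endothelial cells. The tumor-free osteoblast values lie near the array medians and were not shown to be above background, so the osteoblast fold is uncertain. The rise over both shares that limit. Over both cell types Fmo2 rose 8.45-fold without both tumor-free replicate 1 arrays and 4.93-fold against them alone.

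Tnfrsf12a and Igf1r encode receptors. Tnfrsf12a, the receptor for the cytokine TWEAK, had osteoblast levels of 6.42, 6.75 and 6.46 without tumor and 8.18, 8.21 and 7.88 with it. Its endothelial levels were 7.59, 7.01 and 7.02 against 7.90, 8.17 and 8.23. All tumor-bearing arrays were higher, and the rise was 2.93-fold in osteoblasts and 1.86-fold in endothelial cells (over both log2 1.22, SE 0.16). Igf1r, the receptor for insulin-like growth factor 1, was at 5.87, 6.05 and 5.96 in tumor-free osteoblasts and at 6.95, 7.11 and 7.03 in tumor-bearing ones. Endothelial cells had 6.61, 6.52 and 6.24 without tumor and 6.94, 6.97 and 7.31 with it. This was the smallest rise of the 10, at 1.79-fold (log2 0.84, SE 0.13), with 2.10-fold in osteoblasts and 1.53-fold in endothelial cells.

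Tgif1 and Tagln are tied to transforming growth factor beta. Tgif1, a homeobox repressor that restrains SMAD-driven transcription, was at 7.16, 7.50 and 7.25 in tumor-free osteoblasts and at 9.32, 9.06 and 8.32 in tumor-bearing ones. In endothelial cells it was at 7.98, 6.99 and 7.24 without tumor and at 8.73, 8.40 and 8.91 with it. The rise was 2.70-fold over both (log2 1.44, SE 0.21). Tagln, which encodes the actin-binding protein transgelin of smooth muscle, had 5.79, 5.12 and 5.23 against 7.28, 7.20 and 6.14 in osteoblasts. These tumor-free values lie near the array medians and were not shown to be above background, so the size of its osteoblast rise is uncertain. Its endothelial values were 6.47, 5.95 and 5.85 against 7.56, 7.36 and 7.15. It rose 2.60-fold over both (log2 1.38, SE 0.21), and in osteoblasts the third tumor-bearing array stood well below the other two.

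Ell2, Cpeb2 and Rnf19b act on transcripts or proteins. Ell2, an elongation factor of RNA polymerase II, was at 9.57, 9.35 and 9.34 in tumor-free and at 10.18, 10.52 and 9.96 in tumor-bearing osteoblasts. In endothelial cells it was at 7.87, 7.65 and 7.38 and at 8.66, 8.98 and 8.71. It was the only one of the 10 higher genes with the larger rise in endothelial cells, 2.22-fold against 1.74-fold, and that difference between the cell types (log2 -0.35, SE 0.26, osteoblast minus endothelial) did not pass. Cpeb2, which binds messenger RNAs and regulates their translation, was at 5.79, 5.85 and 5.78 without and at 7.75, 7.00 and 7.53 with tumor in osteoblasts. In endothelial cells it was at 8.15, 7.17 and 6.91 and at 8.70, 8.36 and 8.38, so that tumor-free replicate 1 lay just under the tumor-bearing arrays. It rose 2.54-fold over both (log2 1.34, SE 0.22). Rnf19b, a ubiquitin ligase, had osteoblast levels of 7.06, 6.40 and 7.38 and of 8.71, 8.77 and 8.09. Endothelial levels were 7.52, 6.52 and 6.46 without tumor and 8.12, 7.96 and 8.21 with it, and the rise was 2.67-fold (log2 1.42, SE 0.23).

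Plekhh2, which encodes a protein with pleckstrin homology and FERM domains, was also higher in both. Osteoblasts had 8.18, 7.71 and 7.75 without tumor and 9.17, 9.52 and 8.86 with it. Endothelial cells had 4.58, 4.21 and 3.72 and then 5.80, 5.47 and 4.98. The rise was 2.46-fold and 2.37-fold, and the cell types differed by 0.05 on the log2 scale (SE 0.39). Its tumor-free endothelial values lie below the array medians and were not shown to be above background, so the endothelial fold is uncertain.

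Lpar6 was the 1 gene that fell. It encodes a receptor for lysophosphatidic acid, a lipid signal of platelets and tumor cells, and it was far more abundant in endothelial cells. Their tumor-free arrays gave 9.66, 9.88 and 10.04 and their tumor-bearing arrays 8.50, 8.49 and 8.46. In osteoblasts it was at 5.99, 6.28 and 6.19 without tumor and at 5.79, 5.41 and 5.13 with it. All tumor-bearing arrays were lower in both cell types, and the endothelial ones lay close together (8.49 ± 0.02, SD, n = 3). It fell by 1.04 on the log2 scale over both (SE 0.16, adjusted p = 0.040 by limma), by 1.38 in endothelial cells and by 0.71 in osteoblasts. The tumor-bearing osteoblast values reached down to the array medians and were not shown to be above background, so the osteoblast fall is uncertain. On osteoblast arrays the endothelial marker mean was 5.52, 6.11 and 5.67 without tumor and 5.41, 5.43 and 5.17 with it. The part of endothelial cells in the osteoblast fall was not tested.

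Among the 11 genes, 10 were also called in osteoblasts and 1, Lpar6, in endothelial cells. None was called for a difference between the cell types, where their adjusted p ran from 0.25 to 0.96, which does not show that the effects were equal. Fitting 1 mean to each group and averaging the 2 tumor differences, which takes the cell type difference of the effect out of the error, called 165 genes, 148 higher and 17 lower, including all 11. Of these 165, 135 were also called in osteoblasts, 89 had arrays separated the same way in both cell types, and 12 were called for a difference between them.

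**Figure D2:**
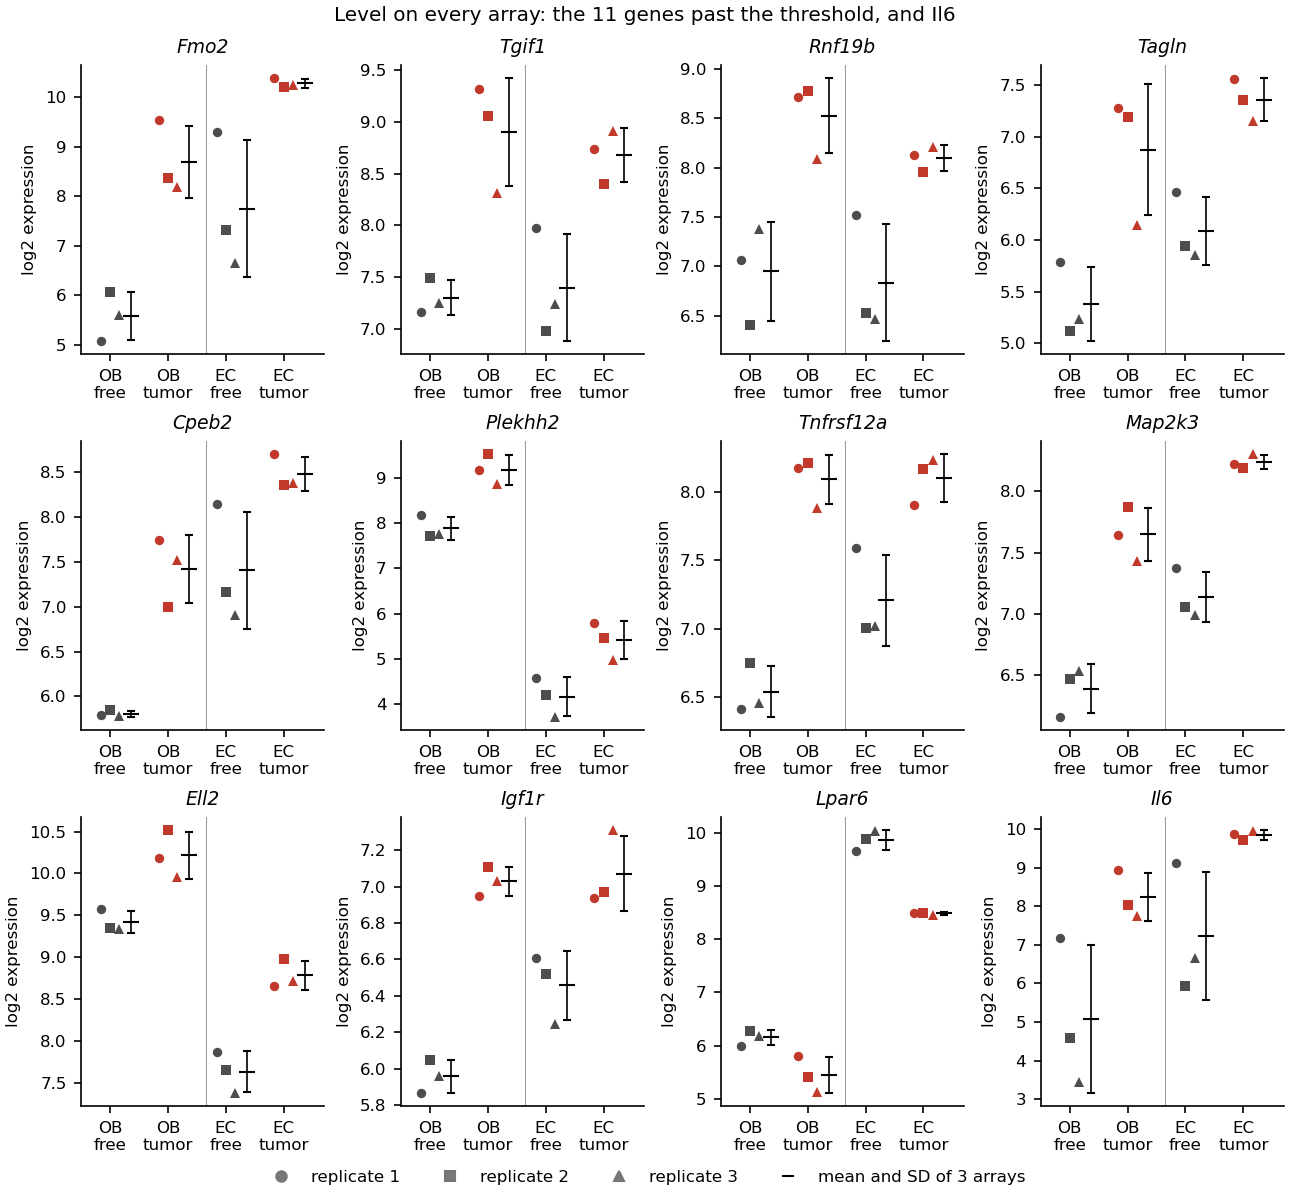
Log2 expression (vertical axis) of the 11 genes past the threshold and of Il6 on every array, with osteoblasts (OB) to the left and endothelial cells (EC) to the right of the line, tumor-free in gray and tumor-bearing in red; symbols give the replicate number, and the bar beside each group is its mean with the SD of 3 arrays. In all 11 genes the tumor-free and tumor-bearing arrays do not overlap within a cell type, and the tumor-free endothelial replicate 1 (circle) lies nearest to the tumor-bearing arrays.

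Il6, an inflammatory cytokine that also promotes osteoclast formation, had the largest difference of the genes at least 2-fold higher in each cell type, and it did not pass the threshold. Osteoblast levels were 7.18, 4.59 and 3.45 without tumor and 8.93, 8.03 and 7.74 with it. Endothelial levels were 9.11, 5.93 and 6.64 without tumor and 9.87, 9.70 and 9.95 with it. Tumor-bearing arrays lay closer together, and the tumor-free arrays spread over more than 3 log2 units in each cell type, with replicate 1 at the top. The difference over both was 2.89 (SE 0.62, 7.39-fold, adjusted p = 0.087 by limma). Without both tumor-free replicate 1 arrays it was 14.7-fold with an adjusted p of 0.00036, and against them alone it was 1.86-fold with an adjusted p of 0.53. The tumor-free osteoblast values of replicates 2 and 3 lie below the array medians and were not shown to be above background, so these folds and the rank of Il6 are uncertain.

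The promoters of Map2k3, Ell2, Lpar6 and Il6 are shown because these genes stand for the most regular rise, the rise larger in endothelium, the fall and the largest difference. Each run holds the 250 bases before the RefSeq start of the gene on GRCm38.p6, on the gene's own strand, all 4 of them plus: Map2k3 at chr11:60931804-60932053, Ell2 at chr13:75707234-75707483, Lpar6 at chr14:73237641-73237890 and Il6 at chr5:30012864-30013113. Capitals mark matches to motifs that were searched on both strands, which are TGANTCA for AP-1, TGACGTCA for the cyclic AMP response element, ACGTG for the core of the hypoxia element, GGAATG for TEAD factors and the NF-kB motif of GGGA and TTTCC with 1 free base between them. No motif's letters contain those of another.
Map2k3: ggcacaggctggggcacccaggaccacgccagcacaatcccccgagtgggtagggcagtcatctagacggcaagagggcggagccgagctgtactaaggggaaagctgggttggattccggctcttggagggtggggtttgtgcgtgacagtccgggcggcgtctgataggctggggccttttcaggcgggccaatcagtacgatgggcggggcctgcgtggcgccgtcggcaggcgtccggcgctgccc
Ell2: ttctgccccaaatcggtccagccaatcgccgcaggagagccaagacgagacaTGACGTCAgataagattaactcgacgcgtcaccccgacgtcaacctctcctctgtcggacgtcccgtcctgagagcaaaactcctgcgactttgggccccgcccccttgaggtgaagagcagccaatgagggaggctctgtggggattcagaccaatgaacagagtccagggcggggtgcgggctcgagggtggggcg
Lpar6: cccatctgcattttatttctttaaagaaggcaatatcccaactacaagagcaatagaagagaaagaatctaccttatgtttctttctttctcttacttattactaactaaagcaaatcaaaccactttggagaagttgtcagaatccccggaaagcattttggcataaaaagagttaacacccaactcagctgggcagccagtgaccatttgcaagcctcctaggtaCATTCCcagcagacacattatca
Il6: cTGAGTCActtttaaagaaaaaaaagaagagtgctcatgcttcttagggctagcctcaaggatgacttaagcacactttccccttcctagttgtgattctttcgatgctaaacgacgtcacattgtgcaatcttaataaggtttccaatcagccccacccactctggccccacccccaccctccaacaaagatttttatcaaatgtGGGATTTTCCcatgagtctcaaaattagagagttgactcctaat
The Ell2 window holds the cyclic AMP element, the Lpar6 window the TEAD letters on the opposite strand, and the Il6 window an AP-1 and an NF-kB match. The Map2k3 window holds none of the 5 motifs, which says only that these letters are not in it.

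Motif shares were counted over the promoters on hand. Of the 66 genes at least 2-fold higher in each cell type, 42 had 58 promoters in the RefSeq table. Of those promoters 7 (12.1%) held the AP-1 letters, 1 (1.72%) the cyclic AMP element and 17 (29.3%) the hypoxia core. The NF-kB letters were in 1 (1.72%), which is the Il6 promoter shown above, and the TEAD letters in 6 (10.3%). A gene with several promoters can count more than once. Over the 12482 promoters of all genes tested the shares were 4.79%, 2.43%, 21.0%, 0.409% and 10.8%. The 172 genes with arrays separated upward in both cell types had 196 promoters for 137 genes. Their shares were 8.16%, 3.57%, 21.9%, 2.04% (4 promoters) and 14.8%. Of the 13 promoters of 8 genes called higher, 0 held the AP-1 letters, 1 the cyclic AMP element, 3 the hypoxia core, 0 the NF-kB letters and 1 the TEAD letters. Tagln and Cpeb2 were not matched in that table. A match is a string of letters and not a bound site, and no test was made of these shares.

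The 66 genes at least 2-fold higher in each cell type included 7 of the 11 called genes. Of the 66, 64 had an unadjusted p under 0.05 over both by limma, beside 1590 of all 12430 genes tested. The 66 were chosen by the size of the same difference, so that count was largely fixed by the choice and gives no support. In 27 of the 66 the arrays were separated in both cell types. Tumor-free replicate 1 was the highest of the tumor-free arrays for 61 of the 66 in endothelial cells and for 43 in osteoblasts. After Il6 and Fmo2 the largest differences were those of Cytl1, a secreted protein of cartilage and stroma (log2 2.80, adjusted p = 0.083 by limma), and of Mt2, a metal-binding metallothionein (2.29, adjusted p = 0.15). Among the next were Nt5e, the surface enzyme that makes adenosine (2.21), Prg4, the lubricating proteoglycan of joints (2.18), Timp4, an inhibitor of matrix proteases (2.15), and Ccl2, a chemokine that draws monocytes (2.13). These genes, and the list members named as examples from here on, were chosen after their values were seen, apart from the 10 genes fixed by name. Prg4 (adjusted p = 0.24 by limma) had overlapping osteoblast arrays and a tumor-free endothelial mean of 4.28, below the array medians. Tumor-free means near the array medians were 5.38 for Timp4 in osteoblasts and 5.63 for Nt5e in endothelial cells. Those 3 levels were not shown to be above background, so the rises from them are uncertain in size. The 3 genes at least 2-fold lower in each cell type were Ramp3, which pairs with the receptor for adrenomedullin (-1.03), Cenpk, a kinetochore protein (-1.15), and Tmem273 (-1.75). The 4 that went in opposite directions were higher in osteoblasts and lower in endothelial cells, namely Nynrin, C330007P06Rik, Fam126b and Mia.

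Gene lists were described by their counts and medians. The list medians stand beside a median log2 difference of -0.02 for all genes tested, of which 21.7% were higher in both cell types and 25.7% lower in both. The 39 lists held 1 called gene, Tagln, which is a member of 2 of them.

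Of 20 immediate early genes, 18 were higher in both cell types, none was lower in both, and 5 had arrays separated upward in both. The median difference was 1.00 over both, 1.23 in osteoblasts and 0.59 in endothelial cells, and 18 members had an unadjusted p under 0.05 while none passed adjustment. The smallest adjusted p values belonged to the nuclear receptor Nr4a3 (log2 1.36) and the zinc finger factor Egr2 (1.04), both 0.073 by limma. Nr4a3 was at 5.62, 5.01 and 5.26 in tumor-free and at 6.86, 6.85 and 6.00 in tumor-bearing osteoblasts, and at 6.73, 5.37 and 5.37 and then 7.20, 7.48 and 7.14 in endothelial cells. Its groups did not overlap in either. The AP-1 partners Fos and Jun had 0.76 and 0.77. The list median was 1.21 without both tumor-free replicate 1 arrays and 0.20 against them alone.

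Heat shock genes are chaperones of protein folding, and their tumor-free values were highest on the replicate 1 arrays. Of 10 members 9 were higher in both cell types, the median was 0.32, and none passed or had separated arrays in both. Dnajb1 (1.10) and Hsph1 (0.97) had the largest differences. The median was 0.55 without both tumor-free replicate 1 arrays and turned to -0.06 against them alone.

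Of 14 cytokine, chemokine and adhesion genes tested, 9 were higher in both cell types, 4 went in opposite directions and 1 was lower in both, Vcam1. None passed, and the median was 0.99 (0.98 in osteoblasts, 0.71 in endothelial cells). Cxcl1, which attracts neutrophils, was separated upward in both (0.96, adjusted p = 0.085), and so was Il6. The adhesion receptor Icam1 had 1.23 (adjusted p = 0.085 by limma): osteoblasts gave 6.47, 6.26 and 5.89 without tumor and 7.49, 7.71 and 7.35 with it, while endothelial cells gave 9.12, 7.58 and 7.27 and then 9.13, 9.12 and 9.18. In endothelial cells tumor-free replicate 1 thus reached the tumor-bearing level. Cxcl2 differed by 2.41 in endothelial cells and by 0.26 in osteoblasts, and Ptgs2, the inducible enzyme of prostaglandin synthesis, by -0.12 and 2.75. The list median was 0.95 without both tumor-free replicate 1 arrays and 0.67 against them alone.

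All 10 genes tested of the NF-kB feedback list were higher in both cell types, the sole list of 39 for which that held. NF-kB is the transcription factor downstream of interleukin 1 and tumor necrosis factor, and this list holds its inhibitors, some of its subunits and other genes that it switches on. The median was 0.48, with 0.65 in osteoblasts and 0.40 in endothelial cells, and 6 members had an unadjusted p under 0.05. Tnfaip3, a ubiquitin-editing inhibitor of the pathway, was separated in both cell types (log2 1.09, adjusted p = 0.083 by limma). It was at 6.92, 7.29 and 6.28 and then at 7.97, 7.90 and 7.74 in osteoblasts, and at 7.72, 6.39 and 6.62 and then at 8.10, 8.10 and 7.93 in endothelial cells. The inhibitor Nfkbia had 0.92. The list median was 0.54 without both tumor-free replicate 1 arrays and 0.16 against them alone.

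Of 10 smooth muscle and pericyte markers 8 were higher in both cell types, with a median of 0.87 (1.30 in osteoblasts, 0.45 in endothelial cells), and Tagln passed. Smooth muscle actin, Acta2, had 1.91 (adjusted p = 0.083 by limma); its levels were 6.51, 6.97 and 5.96 against 9.59, 9.77 and 8.35 in osteoblasts and 8.56, 7.18 and 7.08 against 8.86, 8.92 and 8.21 in endothelial cells, where the groups overlapped. The pericyte marker Rgs5 had 0.26 and Pdgfrb 0.59. Of 11 targets of transforming growth factor beta 7 were higher in both and 2 lower in both, with a median of 0.66 (1.11 and 0.31), Tagln again passing, and Skil, a feedback repressor of SMAD proteins, separated in both (1.21). Medians of the 2 lists were 1.12 and 0.77 without both tumor-free replicate 1 arrays and 0.59 and 0.44 against them alone.

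Of 13 genes of low oxygen and glycolysis tested, 9 were higher in both cell types, 4 went in opposite directions and none was lower in both, with a median of 0.52 (0.73 in osteoblasts and 0.27 in endothelial cells), and none passed. The glucose transporter Slc2a1 (2.82-fold, adjusted p = 0.088 by limma), the glycolytic regulator Pfkfb3 (log2 1.67) and lactate dehydrogenase Ldha (0.52) were separated in both cell types. Vegfa, the vessel growth factor, had 0.27. The list median was 0.59 without both tumor-free replicate 1 arrays and 0.37 against them alone.

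Of 11 interferon-stimulated genes tested, 8 were higher in both cell types and none lower in both, with a median of 0.76 (0.66 in osteoblasts, 0.74 in endothelial cells). In endothelial cells the mean of the 12 measured members was 6.53, 6.53 and 6.54 without tumor and 7.44, 7.28 and 7.32 with it, so that here tumor-free replicate 1 stood with its group. In osteoblasts it was 5.71, 5.80 and 5.83 without tumor and 6.87, 6.05 and 5.63 with it, and the groups overlapped. Gbp3, an interferon-induced GTPase, was separated in both (0.89), and the antiviral Mx2 differed by 2.37 in endothelial cells and 0.06 in osteoblasts. No member passed over both. The list median was 0.71 without both tumor-free replicate 1 arrays and 0.47 against them alone.

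Reticular stroma markers, which belong to the marrow cells that hold stem cells, were higher in both cell types for 8 of 10 members, with a median of 0.67 (0.55 in osteoblasts and 0.59 in endothelial cells). Nt5e had the largest value, the leptin receptor Lepr had 0.96 and Cxcl12, the chemokine that retains stem cells in marrow, 0.61. None passed. The median over both was 0.56 without both tumor-free replicate 1 arrays and 0.74 against them alone, but the cell types differed in this. On tumor-free arrays 1 to 3 the list mean was 8.12, 7.30 and 7.03 in endothelial cells, against 8.25 to 8.35 with tumor. Replicate 1 thus lay near the tumor-bearing level there. In osteoblasts replicate 1 was the lowest, with 8.13, 8.90 and 9.02 without tumor and 8.67 to 9.93 with it, and the groups overlapped. Markers of fibroblasts had a median of 0.26 over 7 tested and those of adipocytes -0.09 over 5.

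Several other lists had a larger median in osteoblasts than in endothelial cells, a difference that was not tested. Targets of glucocorticoids had a median of 0.68 over 11 members (0.74 in osteoblasts, 0.12 in endothelial cells), with Mt2 and Zbtb16 (1.28) among the highest, and the median turned to -0.0068 against tumor-free replicate 1 alone. Cholesterol synthesis had 0.68 over 9 (0.84 and 0.0046), chondrocyte markers 0.87 over 14 (1.84 and -0.17), and osteoclast regulators 0.63 over 10 (1.22 and 0.09). Against tumor-free replicate 1 alone the cholesterol median was 0.12 and the chondrocyte median 0.22, and without tumor-free osteoblast replicate 3 the chondrocyte median was 0.31. The chondrocyte mean was 9.72, 8.46 and 6.59 in tumor-free and 9.54, 10.39 and 10.35 in tumor-bearing osteoblasts, so that the osteoblast groups overlapped, and it was at most 6.45 on endothelial arrays. The part of cartilage cells in the osteoblast differences was not tested. Acute phase and complement genes, with the larger median in endothelial cells, had 0.68 over 9 (0.37 and 0.60), coagulation and fibrinolysis 0.55 over 10 (0.37 and 0.35) and oxidative stress genes 0.48 over 9 (0.33 and 0.23). None of these lists held a called gene.

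Endothelial markers had the largest number of members lower in both cell types of any list, 10 of 16, and none higher in both. As a share this was 62.5%, against 75% of the 4 lymphoid markers tested. The median of the endothelial markers was -0.29 (-0.44 in osteoblasts and -0.25 in endothelial cells), and none passed. On osteoblast arrays their mean was 5.17 to 5.43 with tumor and 5.52 to 6.11 without it, beside array medians of 5.21 to 5.41. These levels were not shown to be above background, so the osteoblast part of the falls is uncertain. The part of endothelial cells in it was not tested. The vessel guidance receptor Robo4 (-0.48, adjusted p = 0.087 by limma), the orphan receptor Tie1 (-0.53) and the scavenger receptor Stab2 (-0.76) were separated downward in both. Pecam1, the CD31 used in the sort, had -0.12. The list median was -0.34 without both tumor-free replicate 1 arrays and -0.21 against them alone. The angiogenesis list had a median of 0.18 over 15. Angpt1, a ligand of the receptor Tek, was separated upward in both (1.42). Its tumor-free endothelial mean of 4.57 lies below the array medians and was not shown to be above background, so its endothelial rise is uncertain. The apelin receptor Aplnr was separated downward in both (-0.62, adjusted p = 0.073 by limma).

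Among blood cell markers, 2 lists stood out in osteoblasts. The median of 10 monocyte and macrophage markers tested was -0.55 over both, -1.15 in osteoblasts and 0.05 in endothelial cells, and that of 8 neutrophil markers -0.42, -1.35 and 0.25. Against tumor-free replicate 1 alone they turned to 0.55 and 0.50. The neutrophil mean over 11 markers was 5.35, 7.63 and 7.29 in tumor-free and 6.60, 6.14 and 5.04 in tumor-bearing osteoblasts, against 4.71 to 5.73 on endothelial arrays, and the part of these cells in the osteoblast differences was not tested. Lymphoid markers had a median of -0.36 over 4, erythroid -0.16 over 6, megakaryocyte 0.08 over 5 and osteoclast markers -0.06 over 6.

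The remaining lists had smaller medians. Osteoblast markers had 0.19 over 8, with the phosphatase Alpl separated upward in both (0.75, adjusted p = 0.090 by limma), and the extracellular matrix list 0.05 over 14. Against tumor-free replicate 1 alone these were 0.81 and 0.43. Matrix proteases and their inhibitors had 0.29 over 13, which was 0.03 without tumor-free osteoblast replicate 1 and 0.48 against replicate 1 alone. Wnt genes had 0.17 over 12, unfolded protein genes 0.17 over 14, circadian clock genes 0.16 over 13 and Notch genes 0.09 over 12. Antigen presentation had -0.07 over 10, cell cycle -0.07 over 16, respiratory chain -0.09 over 15, ribosomal proteins 0.04 over 11, iron handling 0.02 over 10 and p53 targets 0.03 over 7, the last turning to -0.01 with quantile normalization.

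**Figure D3:**
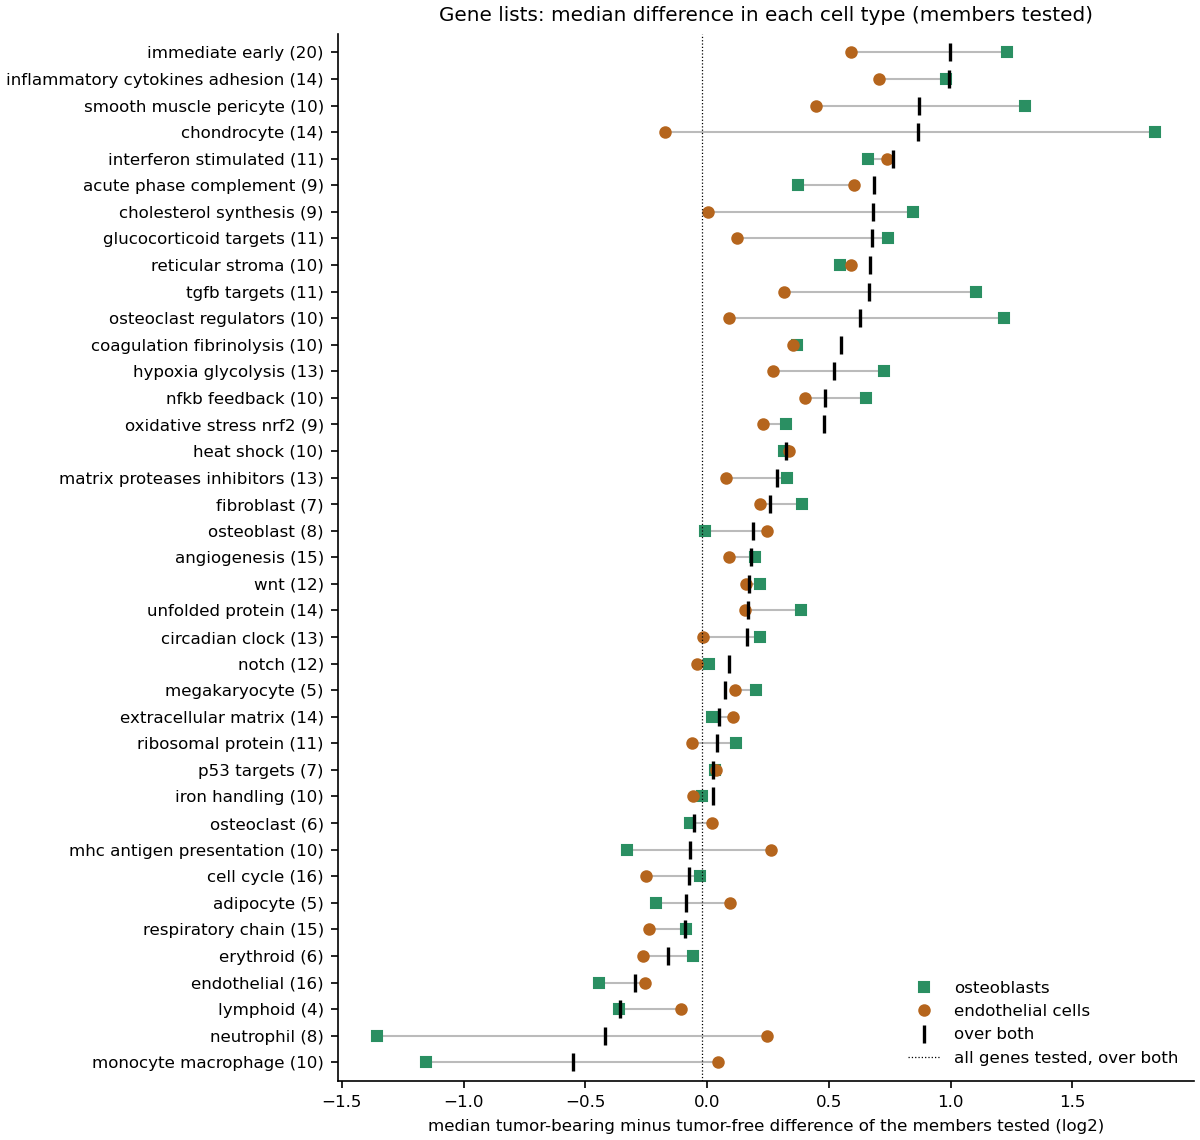
Median log2 difference, tumor-bearing minus tumor-free, of the members tested (their number in parentheses) of 39 gene lists, in osteoblasts (squares), endothelial cells (circles) and over both (bars), with a dotted line at the median of all genes tested. The immediate early list lies at 1.23 and 0.59, while chondrocyte, neutrophil and macrophage markers lie farther from 0 in osteoblasts than in endothelial cells.

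**Figure D4:**
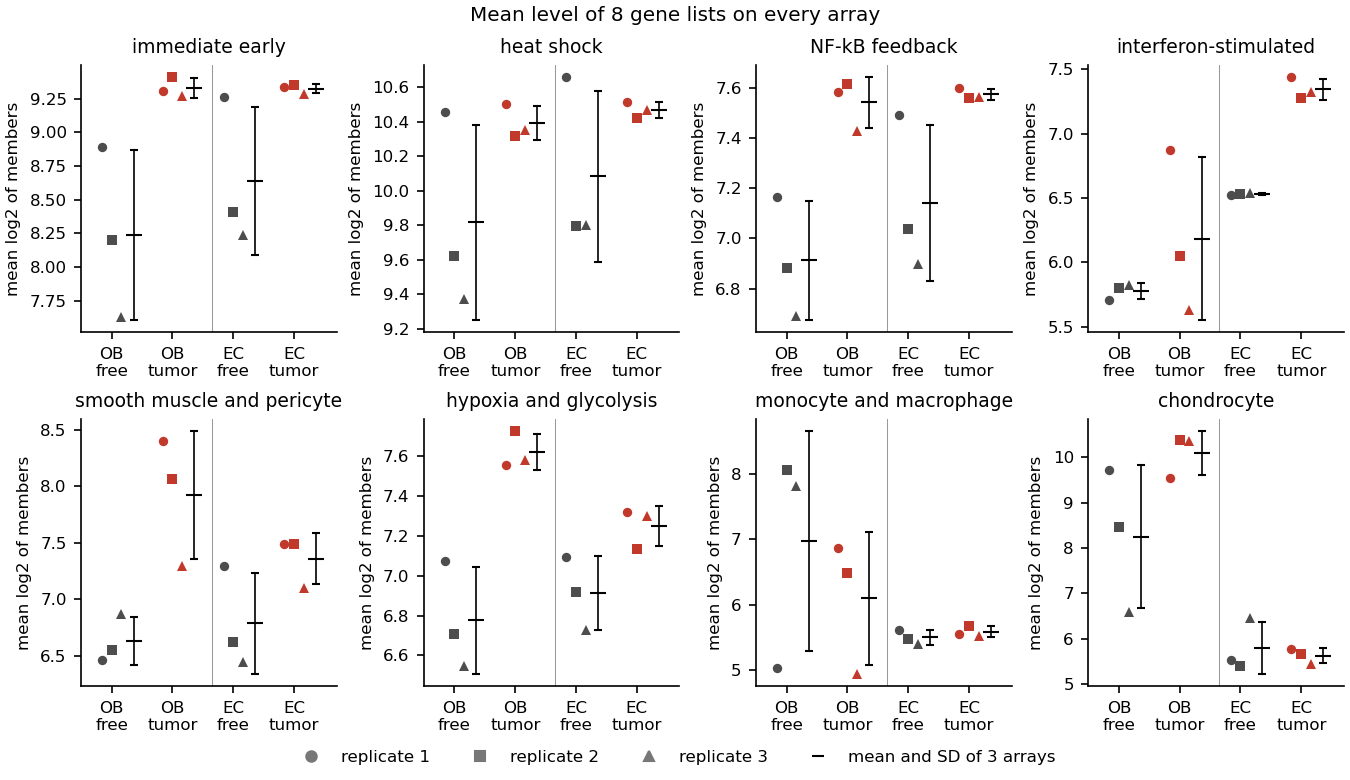
Mean log2 level of all measured members of 8 lists on every array, in tumor-free (gray) and tumor-bearing (red) osteoblasts (OB) and endothelial cells (EC); symbols give the replicate number, and the bars are means with the SD of 3 arrays. In the immediate early and heat shock panels the tumor-free circles (replicate 1) lie above the squares and triangles, in the interferon panel the 3 tumor-free endothelial arrays lie together near 6.53, and monocyte markers vary on osteoblast arrays alone.

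The genes fixed by name did not pass over both cell types. F3, tissue factor, which starts coagulation, showed the largest gap between them: osteoblasts had 8.44, 5.12 and 4.75 without tumor and 10.18, 10.69 and 9.89 with it, while endothelial arrays stayed between 4.40 and 4.84. Its difference was 4.15 in osteoblasts and 0.20 in endothelial cells, and 2.18 over both (SE 0.75), which was 0.92 against tumor-free replicate 1 alone. All its endothelial values and its tumor-free osteoblast values of replicates 2 and 3 lie below the array medians. They were not shown to be above background, so these differences of F3 are uncertain. The osteoclast inhibitor osteoprotegerin, Tnfrsf11b, likewise had 1.61 in osteoblasts and 0.10 in endothelial cells. Its ligand Tnfsf11, the signal for osteoclast formation, had 0.17 over both (SE 0.17), between 7.33 and 8.39 on osteoblast and 6.91 and 7.38 on endothelial arrays. The bone collagen Col1a1 had -0.20 (SE 0.41), and its tumor-free osteoblast arrays gave 8.40, 11.29 and 11.34. Vcam1, an adhesion molecule, had -0.33 (SE 0.33) and Ptprc, the CD45 excluded by the sort, -0.22 (SE 0.53). Without both tumor-free replicate 1 arrays these 3 were -0.70, -0.66 and -0.73, and against those arrays alone they turned to 0.79, 0.34 and 0.81.

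Equal spread was assumed across groups, while the median SD over 3 arrays was 0.33 in tumor-free osteoblasts and 0.17 to 0.22 in the other groups. The count of 11 rests on few arrays: leaving out 1 array gave 1 to 5 calls, except for the 144 without tumor-free endothelial replicate 1.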

How the data were processed

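RNA of sorted osteoblasts and endothelial cells was taken with a Pico Pure kit and amplified as SPIA cDNA, per the labels' protocols. The deposited table holds log2 expression of 34760 probe sets on 12 arrays, from 1.55 to 12.9, made with affy per the submitters' processing notes; no source used here names the version, background correction or normalization, and signal over background was not used. Of 66 array pairs 0 were identical and the highest correlation was 0.97.

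The array annotation gives 1 symbol to 21640 probe sets, several to 1321, and does not list 11799. For 954 of 19937 genes with several probe sets the one with the highest mean over 12 arrays was used. Tests were two-sided, by limma 3.58.1 in R 4.3.3, with Benjamini-Hochberg adjustment over 12430 genes and a threshold of 0.05. The fit over both cell types had cell type and tumor as additive terms (9 residual and 3.1 prior degrees of freedom) and no replicate block. Differences within a cell type and between cell types came from 1 mean per group (8 and 2.89). A fold is the antilog of a log2 difference. The steps were tested on simulated data.

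Named genes were, of those past the threshold with separated arrays in both cell types, up to 10 that rose most and 10 that fell most, up to 2 members from each list with members past the threshold, up to 4 past the thresholds of both the tumor effect and its difference between cell types, and 10 fixed genes (Tnfsf11, Tnfrsf11b, Cxcl12, Vcam1, Pecam1, Col1a1, Ptprc, F3, Il6, Vegfa); clone numbers were passed over. The comparison, the 39 lists and the rules were chosen with earlier results of these data known. Leaving out tumor-free replicates 2 and 3 was added after seeing the data. Sequences are from RefSeq.

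Over all genes tested, same-numbered arrays deviated together little. The correlation of their deviations from the group means, over 18 pairs, ran from -0.26 to 0.108, and 1 was above 0.1. Only the 6 pairs of the same condition and number could share mice, and theirs ran from -0.046 to 0.095. The numbers were not taken to pair the samples. For the immediate early and heat shock lists, however, replicate 1 was the highest tumor-free array in both cell types. Independence of same-numbered arrays was thus not shown.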

Additional observations from a re-analysis of the deposited data

Results flagged for a closer look

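The tumor effect differed between the cell types for 26 genes by a test of the difference itself (limma, Benjamini-Hochberg adjustment over 12430 genes), and none of them is among the 11 genes called over both. Slc41a1, a magnesium transporter, differed with tumor by 2.45 on the log2 scale in osteoblasts and by 0.09 in endothelial cells (difference 2.37, SE 0.31, adjusted p = 0.028). Lbp, which binds bacterial lipopolysaccharide, gave 2.05 and -0.23, the corneal and bone proteoglycan Kera 2.59 and -0.14, and Anxa2, a membrane-binding annexin, 1.31 and -0.10. Others went the other way with larger endothelial values: the drug efflux pump Abcb1b (-0.39 in osteoblasts, 2.09 in endothelial cells), Stxbp6 (-0.34 and 1.78) and the actin-binding Ablim3 (-0.54 and 1.69). These genes were chosen after their values were seen. Leaving out the tumor-free osteoblast array 1 raised the count to 545, and leaving out both tumor-free arrays of that number to 378. The calls were lost in 6 of the 12 fits that left out 1 array, namely tumor-bearing osteoblast replicate 2, each tumor-bearing endothelial array, and tumor-free endothelial replicates 2 and 3, where 1472 to 1948 genes had an unadjusted p under 0.05. They were also lost with the replicate number as a fixed block, where 1861 did.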

How the results depend on the processing

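Over both cell types 11 genes were called, 10 higher and 1 lower, beside 570 in osteoblasts, 3 in endothelial cells and 26 for a difference; the counts below are in that order and were made with limma at the same threshold. The directions of the 11 genes held in all 32 alternative fits that gave them a value, and no called value changed sign. Fits that left out arrays or used 1 cell type could not reverse them, because the arrays of all 11 were separated in both cell types. Of the 39 list medians 20 changed sign in at least 1 fit, and so did 4 of the 10 genes fixed by name, Vcam1, Pecam1, Col1a1 and Ptprc. The counts did not hold. With the replicate number as a fixed replicate block they were 3 (3 higher, 0 lower), 349, 0 and 0. With condition and number as a random replicate block 55 genes were called (47 higher, 8 lower) and 40 for a difference. The correlation estimated within these blocks was -0.107 for the tumor effect over both and 0.0137 with 1 mean per group. A negative correlation narrows the error of the tumor effect. The 55 calls therefore do not show what an allowance for shared mice would give. Averaging both cell types of a number, a replicate block of 3 against 3, called 0 (0 higher, 0 lower), with 1722 at an unadjusted p under 0.05. Since 5 of 12 arrays correlated best with their own number, the numbers were not taken as pairs.

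With 1 mean per group averaged over the cell types 165 were called (148 higher, 17 lower). Weights per group gave 3 (2 higher) with 130 in osteoblasts and 38 in endothelial cells. Quantile normalization gave 6 (5 higher), with 0 in endothelial cells and 14 for a difference, and centring on array medians 1 (1 higher, 0 lower), with 0 and 96. Without a filter 955 were called in osteoblasts and 0 in endothelial cells, and with a filter at the 70th percentile 0 in endothelial cells and 11 for a difference. The mean over probe sets gave 7 in endothelial cells and 41 for a difference. An intensity trend with robust estimation gave 7 (0 lower) with 0 in endothelial cells. A 2-fold minimum left 374 in osteoblasts. The 6 osteoblast arrays alone called 0 (0 higher, 0 lower, 0 in osteoblasts, 1820 at an unadjusted p under 0.05), and the 6 endothelial arrays alone 2 (2 higher, 0 lower). Where 0 were called in endothelial cells under the settings of this paragraph, 568 to 1186 genes had an unadjusted p under 0.05, and 854 did with the fixed block.

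Leaving out 1 array, or both arrays of a condition and number, gave 0 to 324 calls (0 to 269 higher, 0 to 55 lower), 23 to 1573 in osteoblasts, 0 to 159 in endothelial cells and 0 to 545 for a difference. The highest counts over both were 324 without both tumor-free replicate 1 arrays and 144 without the endothelial one; in osteoblasts 1573 came without tumor-free osteoblast replicate 1, and 23 without both tumor-bearing replicate 2 arrays. The added fit without tumor-free replicates 2 and 3 called 0 over both (0 higher, 0 lower, 1128 at an unadjusted p under 0.05), 905 in osteoblasts, 0 in endothelial cells and 96 for a difference; each tumor-free group then holds 1 array, assumed to vary like the others. The causes of these changes were not tested. Depth has no meaning here, the number of arrays limits the precision, and signal over background was not used.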
